A study of Mus musculus with 9 samples.

Results

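The alkaline phosphatase family of the mouse was followed through restoration of Apc in tumour organoids. It comprises 4 genes, Alpi, Akp3, Alppl2 and Alpl, found by symbol in GENCODE M21 among the 21253 genes of the deposited count table. RNA was sequenced from 9 samples of AKP organoids, 3 in each of 3 groups. AKP is the usual name for a kind of genetically engineered intestinal tumour organoid, and the labels do not spell out the alleles. All 9 samples carry a short hairpin RNA against Apc that acts while doxycycline is present. Controls stayed in doxycycline, with Apc silenced. Doxycycline was taken away from the rest, which gave samples with Apc restored for 2 days and for 7 days. The 3 replicates of each group are given as technical ones of 1 organoid line. Every p-value therefore speaks of these 9 samples, not of separate tumours. Doxycycline removal, Apc restoration and time in culture cannot be told apart.

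Alkaline phosphatases are zinc-containing enzymes that sit on the outside of the cell, held in the membrane by a glycosylphosphatidylinositol (GPI) anchor, and cleave phosphate from many substrates. In the intestine they are concentrated in the brush border of absorptive enterocytes, where they are known to remove phosphate from bacterial lipopolysaccharide and from extracellular nucleotides. Alpi and Akp3 encode the intestinal enzymes of the mouse, of which Akp3 is known mainly from the duodenum. Alppl2 encodes the embryonic form, and Alpl the tissue-nonspecific form of bone, liver and kidney.

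Of the family, 3 genes lie side by side on chromosome 1 (GRCm38). Alppl2 (ENSMUSG00000026246) spans chr1:87086694-87089928 on the minus strand. Alpi (ENSMUSG00000079440) follows at chr1:87098002-87101606, also on the minus strand. Akp3 (ENSMUSG00000036500) lies at chr1:87124973-87127912 on the plus strand. Alpl (ENSMUSG00000028766) is far larger and stands alone at chr4:137741733-137796384, minus strand. The main coding transcript of each chromosome 1 copy has 11 exons and that of Alpl has 12. Over aligned bases, the coding sequences of Alpi and Akp3 were 81.8% identical, those of Alpi and Alppl2 81.0% and those of Akp3 and Alppl2 78.4%. Alpl matched the other members at 64.3% to 66.0% of bases.

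The likeness of the chromosome 1 copies bears on their counts, since a read that matches more than 1 copy cannot be placed. The longest run shared by the coding sequences of Alpi and Akp3 was 68 bases within exon 2. It is given here with the matching stretch of Alppl2, in 5′ to 3′ order and with bases that differ from Alpi in capitals.
Alpi (chr1:87101269-87101336, minus strand): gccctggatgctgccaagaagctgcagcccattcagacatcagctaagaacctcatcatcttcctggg
Akp3 (chr1:87125202-87125269, plus strand): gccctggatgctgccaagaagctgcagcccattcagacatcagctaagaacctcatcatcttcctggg
Alppl2 (chr1:87089500-87089567, minus strand): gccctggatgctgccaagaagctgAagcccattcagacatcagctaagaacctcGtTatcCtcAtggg
Alppl2 differed from Alpi at 5 of these 68 bases. Over all 75-base windows of the Alpi coding sequence, the median was 14 mismatches to the closest stretch of Akp3 and 13 to that of Alppl2. Some windows were much closer, with 4.9% within 2 mismatches of Akp3 (fewest 1). For Alppl2 this was 0% (fewest 3). Of all 50-base subsequences of the Alpi transcript, 2.4% occurred exactly in another transcript of the annotation, on either strand. These were in Akp3 (35 subsequences), in the pseudogene Akp-ps1 (19) and in Alppl2 (1). The figure was 1.57% for Akp3, 0.13% for Alppl2 and 0% for Alpl, and at 75, 100 and 150 bases it was 0% for all 4 members. The read length is not given in the sources used here. A long non-coding RNA gene, Gm29371, overlaps Alppl2 on the opposite strand, and the library kit does not mark strand. No 50-base subsequence of Alppl2 transcripts occurred in its transcripts. Akp-ps1 and Gm29371 were not analysed here.

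The libraries held 24143589 to 32277040 counts. Levels are in CPM, the counts of a gene relative to the library total as scaled by trimmed mean of M values (TMM); where 1 value stands for a group it is the mean of 3 samples, ± SD where given. Changes come from edgeR as a log2 fold change (log2FC) ± SE, and its p-values were adjusted over all 12535 genes tested. Both changes against control share the same control samples. Apc, the target of the hairpin, stood at 6.8 to 8.84 CPM in the controls, 24.8 to 38.1 CPM at 2 days and 67.9 to 92.9 CPM at 7 days, so the groups did not overlap. The background for any call was 23.7% of genes at 2 days (13.1% higher and 10.6% lower than control). At 7 days it was 82.3% (40.5% higher and 41.8% lower), and between 2 and 7 days 79.1% (39.2% higher and 39.9% lower at 7 days). Of the 7-day calls against control, 49.2% were higher, and with library size alone as the scaling 34.8% (7 against 2 days, 49.5% and 31.8%). At those rates a call alone sets a member little apart from other genes, and the sizes and the order of the changes say more.

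Alpi, the intestinal alkaline phosphatase used widely as an enterocyte marker, carried most of the family's RNA in every sample. Its counts were 31, 43 and 33 in the controls, 214, 225 and 216 at 2 days, and 36754, 34380 and 38483 at 7 days. These correspond to 1.2, 1.23 and 1.17 CPM, then 6.55, 7.79 and 6.63 CPM, and finally 1590, 1291 and 1411 CPM. The samples of each group were close together and lay above all samples of the earlier group. By 2 days Alpi had risen 5.78-fold (log2FC 2.53 ± 0.15, adjusted p = 1.2e-08 in edgeR). From 2 to 7 days it rose a further 205-fold (log2FC 7.68 ± 0.12, adjusted p = 4.5e-16 in edgeR). At 2 days 24.8% of the 7-day log2FC of 10.21 was in place. At 7 days its reads made up 0.118% of the libraries, and its level per kb exceeded that of 99.6% of genes.

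Akp3, the other intestinal enzyme, was near the limit of detection in the controls and at 2 days, and rose by 7 days. It had 6, 1 and 1 counts in the controls and 5, 6 and 3 at 2 days (0.0986 ± 0.115 and 0.151 ± 0.0578 CPM), with overlapping groups. The difference at 2 days did not pass the test (log2FC 0.70 ± 0.68, edgeR adjusted p = 0.51). The counting interval of the ratio ran from 0.647 to 4.55, for counting error only. A rise or a fall within that range could not be told from no change at this depth. Counts then reached 2227, 2093 and 2472 at 7 days (88.5 ± 9.07 CPM). The rise from 2 to 7 days was 578-fold (log2FC 9.18 ± 0.22, adjusted p = 2.1e-14 in edgeR). Against control, the 7-day level was 937-fold higher (log2FC 9.87 ± 0.24, adjusted p = 1.2e-14 in edgeR). Among genes tested between 2 and 7 days, 17 had a larger log2FC than Akp3, whereas 63 had a larger one than Alpi. The control level of Akp3 rests largely on replicate 1, which holds 6 of its 8 counts. Without that library the log2FC was 11.26 at 7 days and 2.09 at 2 days, still short of the threshold at 2 days (edgeR adjusted p = 0.077). With 8 control counts the SE can lie below counting error, whose interval for the 7-day ratio was 497 to 2270.

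Alppl2, the embryonic form, rose in both steps but stayed low. Its counts were 10, 12 and 15 in the controls, 35, 26 and 41 at 2 days, and 134, 112 and 137 at 7 days, with no overlap between groups. The levels were 0.421 ± 0.0988, 1.08 ± 0.179 and 5.01 ± 0.796 CPM. By 2 days Alppl2 had risen 2.58-fold (log2FC 1.37 ± 0.27, adjusted p = 0.0018 in edgeR). From 2 to 7 days the rise was 4.6-fold (log2FC 2.2 ± 0.18, adjusted p = 2.5e-08 in edgeR), which made 11.9-fold against control (log2FC 3.57 ± 0.22, adjusted p = 5.8e-10 in edgeR). At 2 days 38.3% of its 7-day log2FC was in place. At 7 days its counts equalled 0.326% to 0.365% of those of Alpi in the same library, compared with 27.9% to 45.5% in the controls. Whether part of the 7-day Alppl2 count is made of Alpi reads was not tested.

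Alpl, the tissue-nonspecific enzyme, was close to absent. It had 1 count in the controls (replicate 3), 0 at 2 days and 2 at 7 days (replicate 3), and did not pass the expression filter, so it was not tested. Upper 95% limits, for counting error only, were 0.0627 CPM in the controls, 0.0392 CPM at 2 days and 0.0938 CPM at 7 days. All groups were under the floor of 3 counts, which in the 2-day group is 0.0319 CPM on its TMM-scaled total (85181009 counts before scaling). No fold change is given. The filter needs enough counts in at least 3 samples, so 3 of the 4 members were tested, and Akp3 passed through its 7-day samples. Of these 3, edgeR called 2 higher at 2 days, where 13.1% of genes were, and all 3 higher at 7 days, where 40.5% were. The filter favoured the 7-day call of Akp3, so the 7-day count is no support for a change of the family as a whole.

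**Figure D1:**
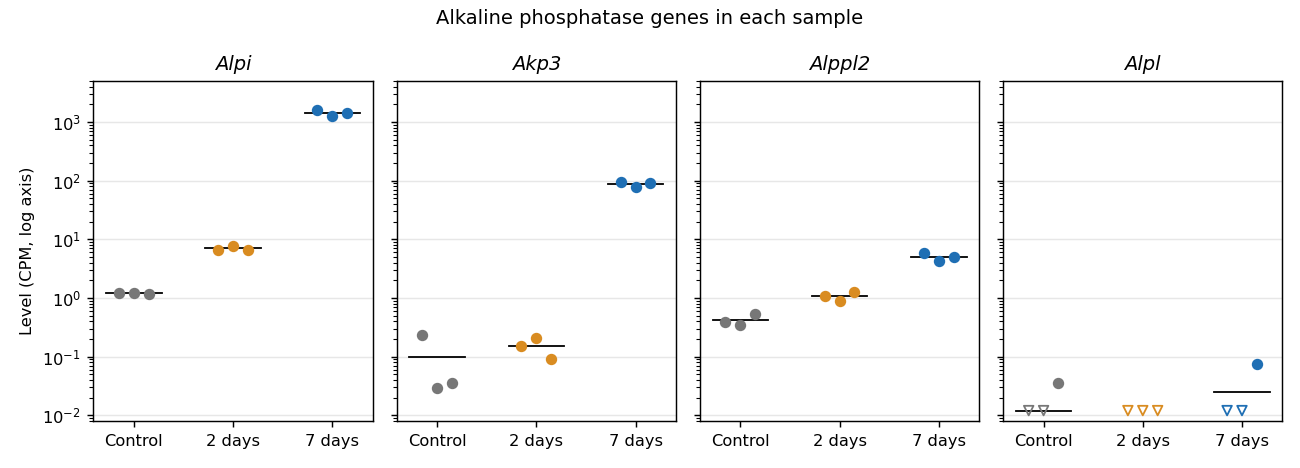
Level of each family member in each sample (points; CPM on a log axis) by group, with the group mean as a line; open triangles at the bottom stand for samples with 0 counts. Alpi goes from about 1.2 CPM in controls to between 1291 and 1590 CPM at 7 days, Akp3 overlaps between control and 2 days and reaches 88.5 CPM at 7 days, Alppl2 ends at 5.01 CPM, and Alpl has at most 2 counts in a sample.

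Compared per kb of exonic sequence, the order of the members changed once. In the controls the levels were 0.514 ± 0.0134 CPM per kb for Alpi, 0.187 ± 0.0438 for Alppl2, 0.047 ± 0.0549 for Akp3 and 0.00294 ± 0.00508 for Alpl. At 2 days the order was the same, at 2.99 ± 0.296, 0.477 ± 0.0795, 0.0719 ± 0.0276 and 0 CPM per kb. At 7 days Alpi stood at 612 ± 64.5 CPM per kb and Akp3 at 42.2 ± 4.32, now above Alppl2 at 2.22 ± 0.353, with Alpl last at 0.00606 ± 0.0105. In each group the samples of neighbouring members in this order did not overlap.

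The make-up of the family's RNA was read from the share of each copy in the summed counts of the 3 chromosome 1 copies, which does not depend on the scaling of libraries. There were 47, 56 and 49 such counts in the controls, 254, 257 and 260 at 2 days, and 39115, 36585 and 41092 at 7 days. The share of Alpi rose from 70.0% ± 5.89 to 84.96% ± 2.32 and 93.9% ± 0.183 (SD, n = 3 per group; exact permutation test over the 9 samples, adjusted p = 0.00536). The share of Alppl2 fell in the same steps, from 24.4% ± 5.35 to 13.2% ± 2.87 and 0.327% ± 0.0190 (exact permutation adjusted p = 0.00536). Both unadjusted p-values, 0.00357, are the smallest that 9 samples in 3 groups of 3 can give. The 3 shares of a library are parts of 1 total, so the rise of Alpi and the fall of Alppl2 are not separate results. For Akp3 the share was 5.53% ± 6.27, 1.82% ± 0.604 and 5.81% ± 0.179, and the groups did not pass the test (exact permutation adjusted p = 0.354). Control replicate 1 stood at 12.8% Akp3 (95% exact binomial interval 4.83% to 25.7%), and the other controls at 1.79% and 2.04%. Without that library the Akp3 test passed (exact permutation adjusted p = 0.0321).

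**Figure D2:**
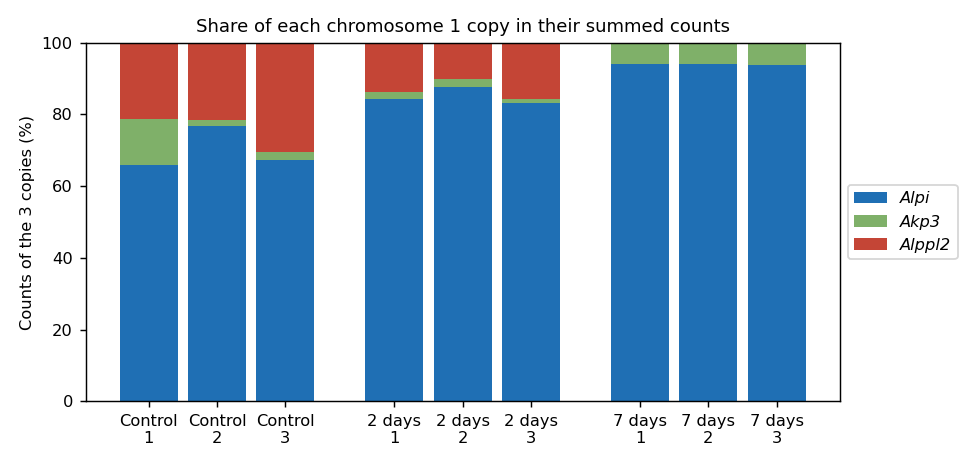
Share of Alpi, Akp3 and Alppl2 (stacked bars, % of their summed counts) in each of the 9 samples. Alppl2 takes 21.3% to 30.6% in the control bars and at most 0.343% in the 7-day bars, while the Akp3 band is wide in control replicate 1 alone among the controls and lies at 5.69% to 6.02% at 7 days.

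Ratios between members within a library were compared for 3 pairs, and pairs with Alpl were not formed. They use the same counts as the shares, and each log2 ratio follows from those of the other pairs. The log2 ratio of Alpi to Alppl2 (0.5 added to each count) was 1.5 ± 0.352 in controls, 2.69 ± 0.362 at 2 days and 8.16 ± 0.0850 at 7 days (SD, n = 3; exact permutation adjusted p = 0.0107). Alpi thus gained 6.66 ± 0.21 (SE) on Alppl2 by 7 days on the log2 scale, with no overlap between groups. The log2 ratio of Akp3 to Alppl2 was −2.37 ± 1.46, −2.76 ± 0.773 and 4.15 ± 0.0864 (exact permutation adjusted p = 0.0429), with a gain of 6.91 ± 0.45 (SE) between 2 and 7 days. The log2 ratio of Alpi to Akp3 was 3.87 ± 1.39, 5.45 ± 0.441 and 4.01 ± 0.0468, and this pair did not pass (exact permutation adjusted p = 0.129). It passed without control replicate 1 or without control replicate 2 (exact permutation adjusted p = 0.0107 and 0.0321), and the Akp3 to Alppl2 call was lost without 2-day replicate 3 (exact permutation adjusted p = 0.0536). From control to 7 days the difference between the changes of Alpi and Akp3 was 0.14 ± 0.81 (SE), which does not show that they changed alike. It was 1.58 ± 0.84 from control to 2 days and −1.44 ± 0.26 from 2 to 7 days, with no overlap in either step. Akp3 thus gained on Alpi in the later step, measured from 14 Akp3 counts at 2 days. These steps were not tested singly.

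The promoters are shown because these 3 neighbouring genes all stood higher at 7 days, but by very different amounts. The sequences are those of RefSeq (GRCm38.p6), from 250 bases before to 50 after the start, 5′ to 3′ on the gene's strand. All 4 members matched that table, with 5 entries, Alpl having more than 1 start. Capitals mark the runs of at least 10 bases that all 3 chromosome 1 promoters share.
Alpi (chr1:87101557-87101856, minus strand): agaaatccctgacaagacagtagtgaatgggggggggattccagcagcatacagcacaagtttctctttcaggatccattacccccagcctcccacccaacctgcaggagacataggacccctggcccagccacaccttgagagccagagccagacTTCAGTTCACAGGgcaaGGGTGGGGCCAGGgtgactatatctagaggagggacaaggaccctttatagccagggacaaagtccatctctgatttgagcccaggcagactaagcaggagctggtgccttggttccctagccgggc
Akp3 (chr1:87124704-87125003, plus strand): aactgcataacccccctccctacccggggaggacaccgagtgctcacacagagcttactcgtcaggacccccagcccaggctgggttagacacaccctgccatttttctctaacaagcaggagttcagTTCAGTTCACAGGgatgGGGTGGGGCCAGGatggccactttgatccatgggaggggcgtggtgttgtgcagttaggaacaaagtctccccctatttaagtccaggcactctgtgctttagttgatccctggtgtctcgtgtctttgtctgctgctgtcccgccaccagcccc
Alppl2 (chr1:87089879-87090178, minus strand): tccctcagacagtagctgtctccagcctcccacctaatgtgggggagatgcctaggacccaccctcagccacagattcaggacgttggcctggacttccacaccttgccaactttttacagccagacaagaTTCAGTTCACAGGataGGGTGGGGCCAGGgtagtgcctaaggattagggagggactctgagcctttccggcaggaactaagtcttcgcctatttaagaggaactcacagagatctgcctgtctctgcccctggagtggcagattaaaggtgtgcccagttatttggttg
The promoters of Alpi and Alppl2 were 71.9% identical over aligned bases, those of Alpi and Akp3 66.4% and those of Akp3 and Alppl2 66.8%. The shared runs, TTCAGTTCACAGG and GGGTGGGGCCAGG, each of 13 bases, began at −94 and −77 relative to the start in Alpi, at −122 and −105 in Akp3, and at −119 and −103 in Alppl2. Of 32851 promoters, 10 held the former on either strand and 16 the latter. Only these 3 held both, which is a description of runs that were chosen for being shared.

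The letters of 10 motifs were searched for on both strands. For HNF4 these were CAAAGTCCA and CAAAGGTCA, which share their first letters with each other and, reversed, with the TCF/LEF motif. CAAAGTCCA stood at −19 in Alpi and in 0.475% of all promoters. In Akp3 its first 7 letters alone, chosen after the sequences were seen, stood at −44, and 4.44% of promoters hold them, those of Alpi and Alpl included. Below, the capitals mark these letters.
Alpi: tagccagggaCAAAGTCCAtctctgatttg
Akp3: cagttaggaaCAAAGTCtccccctatttaa
The Akp3 promoter also held a KLF motif, GGGCGTGG, which is in 5.33% of promoters, and the TCF/LEF motif, CTTTGAT, in 3.73%. The TATA box letters, TATAAA, are in 13.6% of promoters and stood on the opposite strand in Alpi and Alpl. The other letters searched were found in none of the members' promoters. They were the CDX motifs TTTATG (in 11.9% of promoters) and TTTATT (in 19.6%), which overlap in their first letters. They were also CAAAGGTCA (0.478%), the KLF motif GGGTGTGG (3.56%), the GATA motif AGATAA (11.2%) and an HNF1 motif (0.00913%). None of the 10 motifs was in the Alppl2 promoter. A match is a description of letters, not of binding.

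Transcription factors of the intestinal epithelium, some of them known to act on intestinal alkaline phosphatase genes, were higher beside them. At 2 days 6 of the 14 tested (of 15 listed) were called higher and 1 lower, with a median log2FC of 0.303 against −0.00391 over all genes. Of all genes, 13.1% were called higher and 10.6% lower at that time. The lower call was lost without 2-day replicate 3, and there were 2 without 7-day replicate 1 or 3. At 7 days 13 were called higher and the remaining 1 did not pass, with a median of 1.68 against −0.0324, where 40.5% of all genes were called higher. Ppara, named for this alone, passed the expression filter through its 7-day samples (9, 17 and 684 counts per group), which favours its higher call. Hnf4a, a nuclear receptor that drives enterocyte genes, rose from 242 ± 12.95 CPM in controls to 490 CPM at 2 days and 1450 ± 133 CPM at 7 days (log2FC 1.02 and 2.58, with adjusted p-values in edgeR of 1.7e-06 and 3.7e-12). Its relative Hnf4g rose from 3.44 ± 0.253 to 7.10 and 97.9 ± 21.2 CPM (log2FC 1.04 and 4.83), and the homeobox gene Isx from 35.9 to 65.0 and 163.8 CPM (log2FC 0.86 and 2.19). Cdx2, an intestinal homeobox factor named here after its values were seen, stood at 171.5, 178.2 and 164.7 CPM and passed at neither time. Cdx1 had 0, 2 and 5 counts per group and was not tested.

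Genes that serve the enzymes had smaller log2FC at 7 days than Alpi, Akp3 and Alppl2. Zinc transporters of the secretory pathway, which supply the metal that alkaline phosphatases need, had 0 calls among 3 tested at 2 days in edgeR, limma-voom and DESeq2, and 0 at an unadjusted p under 0.05. At 7 days Slc30a7 rose from 35.0 to 47.0 CPM (log2FC 0.42 ± 0.08) and Slc30a6 from 22.02 to 26.8 CPM (0.29 ± 0.08), while Slc30a5 fell from 77.5 to 51.8 CPM (−0.58 ± 0.09). With library size alone as the scaling, which moves the median log2FC of all genes at 7 days by −0.401, the calls of Slc30a6 and Slc30a7 were lost and Slc30a6 turned to −0.11. Of 27 tested genes of GPI anchor synthesis and attachment, 1 was called higher at 2 days, Pigp (4.01 to 5.54 CPM), a call that did not hold when control replicate 2, 2-day replicate 1 or 2-day replicate 3 was left out (edgeR adjusted p of 0.057 to 0.065). At 7 days 12 were called higher and 5 lower (median log2FC 0.0863), which became 3 and 15 with library size alone. Of all genes tested, 13.1% were called higher at 2 days, and 40.5% higher and 41.8% lower at 7 days. Pgap3 rose from 9.42 to 28.5 CPM (log2FC 1.59 ± 0.13) and Pgap1 from 217.2 to 450.9 CPM (1.05 ± 0.11), both of which act on the lipid part of the anchor. Pgap2, which also does, did not pass (log2FC 0.09, edgeR adjusted p = 0.30), and Pigw, an enzyme of anchor synthesis, fell (log2FC −1.08 ± 0.18); these 2 genes are named outside the rule, after their values were seen.

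Genes of extracellular nucleotides and pyrophosphate, and acid phosphatases, changed in both directions. At 2 days 4 of 9 tested genes of extracellular nucleotides and pyrophosphate were called higher and 2 lower, and at 7 days 7 were higher and 1 lower (median log2FC 0.869). Among all genes, 13.1% were called higher and 10.6% lower at 2 days, and 40.5% and 41.8% at 7 days. Enpp3, named for this alone, passed the expression filter through its 7-day samples (4, 9 and 246 counts per group), which favours its higher call. The 4 higher calls at 2 days became 1 without 2-day replicate 1, and 2 when any of control replicates 2 and 3, 2-day replicates 2 and 3 and 7-day replicate 2 was left out. Entpd8, an ectonucleotidase, rose from 0.798 to 3.56 and 31.5 CPM (log2FC 2.13 and 5.28), whereas its relative Entpd3 fell from 51.0 to 21.6 and 3.41 CPM (−1.24 and −3.90). Enpp5 rose from 10.1 to 12.4 and 80.0 CPM (0.30 and 2.99), and its 2-day call did not hold when control replicate 3 or 2-day replicate 1 was left out (edgeR adjusted p = 0.059 and 0.057). Of 5 acid phosphatases tested, 1 was called higher and 1 lower at 2 days, and 3 higher and 2 lower at 7 days (median 0.495). Acp5 rose from 39.4 to 56.4 and 274.4 CPM (log2FC 0.52 and 2.80) and the lysosomal Acp2 from 11.8 to 38.4 CPM at 7 days (1.70), while Acpp fell from 0.568 to 0.0645 CPM (−3.03).

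Phosphate transporters, which take up or release the phosphate that such enzymes set free, had 1 lower call among 4 tested at 2 days and 3 higher and 1 lower at 7 days (median 0.782). Over all genes, 10.6% were called lower at 2 days, and 40.5% higher and 41.8% lower at 7 days. The exporter Xpr1 rose from 32.6 to 78.6 CPM at 7 days (log2FC 1.27) and the intestinal transporter Slc34a2 from 0.0428 to 1.01 CPM (4.37, from few control counts). Slc34a2 passed the expression filter through its 7-day samples (4, 11 and 78 counts per group), which favours its higher call. Slc20a1 rose from 65.3 to 80.3 CPM (0.30), which turned to −0.11 with library size alone. Slc20a2 fell from 60.2 to 51.1 and 52.5 CPM (−0.23 and −0.20), calls that several settings lost, among them leaving out any control replicate (edgeR adjusted p of 0.066 to 0.12) or 7-day replicate 2, at both times, 2-day replicate 1 or 3 at 2 days, and 7-day replicate 3 at 7 days. Of 5 tested genes of vitamin B6 handling, whose phosphorylated form is an alkaline phosphatase substrate, 2 were called lower at 2 days and 3 at 7 days, with 0 higher at either time in edgeR, limma-voom or DESeq2, and 0 at an unadjusted p under 0.05 (median log2FC −0.616 and −0.322). Without 7-day replicate 3, 1 was called higher at 7 days. The pyridoxal phosphatase Pdxp fell from 4.89 to 2.57 and 0.645 CPM, the kinase Pdxk from 26.9 to 15.4 and 19.8 CPM, and Plpbp from 65.0 to 52.0 CPM at 7 days.

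Genes that recognise lipopolysaccharide, another substrate of the intestinal enzyme, had 2 higher calls among 6 tested at 2 days, and 4 higher and 2 lower at 7 days (median 0.664). The background was 13.1% of genes called higher at 2 days, and 40.5% higher and 41.8% lower at 7 days. The co-receptor Cd14 rose from 9.06 to 19.5 and 20.9 CPM (log2FC 1.10 and 1.21). The adaptor Ticam1 rose from 9.89 to 15.6 and 86.7 CPM (0.66 and 3.13), while the adaptor Myd88 fell from 52.3 to 38.3 CPM at 7 days (−0.45). With library size alone, 2 were called higher at 7 days.

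**Figure D3:**
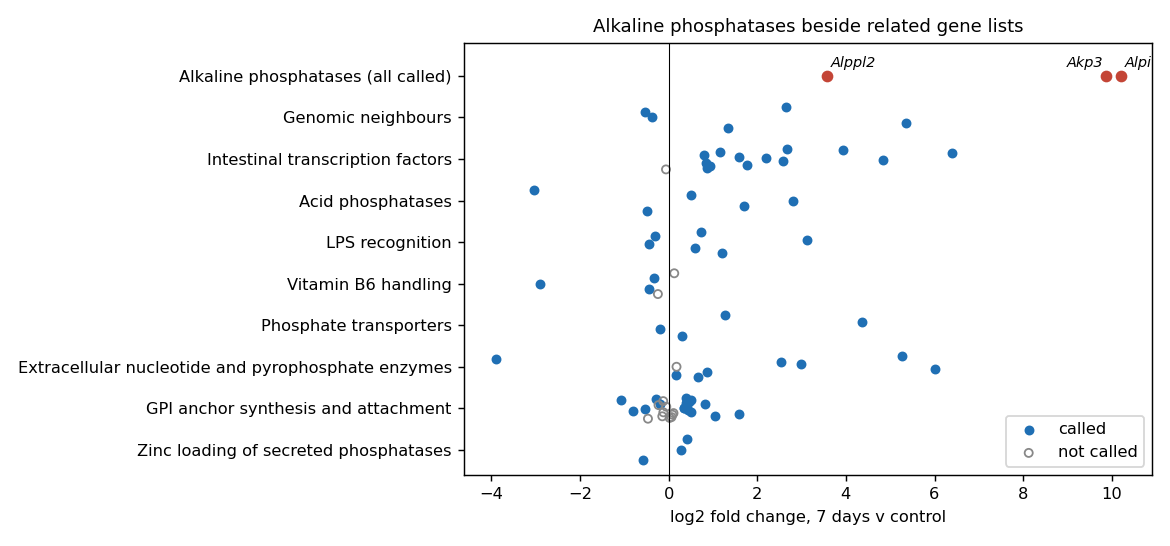
Change at 7 days against control (x axis, log2 fold change) of every tested gene of the related lists (rows) and of the 3 tested alkaline phosphatases (red points, top row); filled points passed edgeR at an adjusted p under 0.05 and open points did not. Alpi at 10.21 and Akp3 at 9.87 lie to the right of every listed gene, and Alppl2 at 3.57 lies within the range of the lists.

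The 5 tested neighbours had 7-day changes between −0.53 and 5.35 on the log2 scale, below those of Alpi and Akp3, and 1 of them, Efhd1, lay above Alppl2. Of 9 protein-coding neighbours with a start within 200 kb, 5 were tested, and 3 were called higher and 2 lower at 7 days (1 and 1 at 2 days). Efhd1 passed the expression filter through its 7-day samples (4, 6 and 154 counts per group), which favours its higher call. Background calls were 40.5% higher and 41.8% lower at 7 days (13.1% and 10.6% at 2 days). On chromosome 1 Ecel1, next to Akp3, had 0 counts in controls and at 2 days and 4, 3 and 4 counts at 7 days. Chrnd, Chrng and Prss56 had 0, 1 and 28 counts over all samples and were not tested either. Eif4e2, a cap-binding protein gene with its start 112.3 kb from that of Alpi, fell from 124.2 to 96.3 CPM at 7 days (log2FC −0.37), and Efhd1, at 162.8 kb, rose from 0.0438 to 2.00 CPM (5.35 ± 0.33, edgeR adjusted p = 6.2e-10). Beside Alpl on chromosome 4, Rap1gap rose from 7.30 to 14.8 and 46.0 CPM (1.02 and 2.65) and Ece1 from 23.4 to 59.1 CPM at 7 days (1.34), while Alpl itself stayed at its floor. Eif4g3 fell from 65.7 to 55.7 and 45.3 CPM (−0.24 and −0.53), and its 2-day call was lost on leaving out any control replicate (edgeR adjusted p of 0.08 to 0.10), 2-day replicate 1 or 3, or 7-day replicate 2, among other settings.

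**Figure D4:**
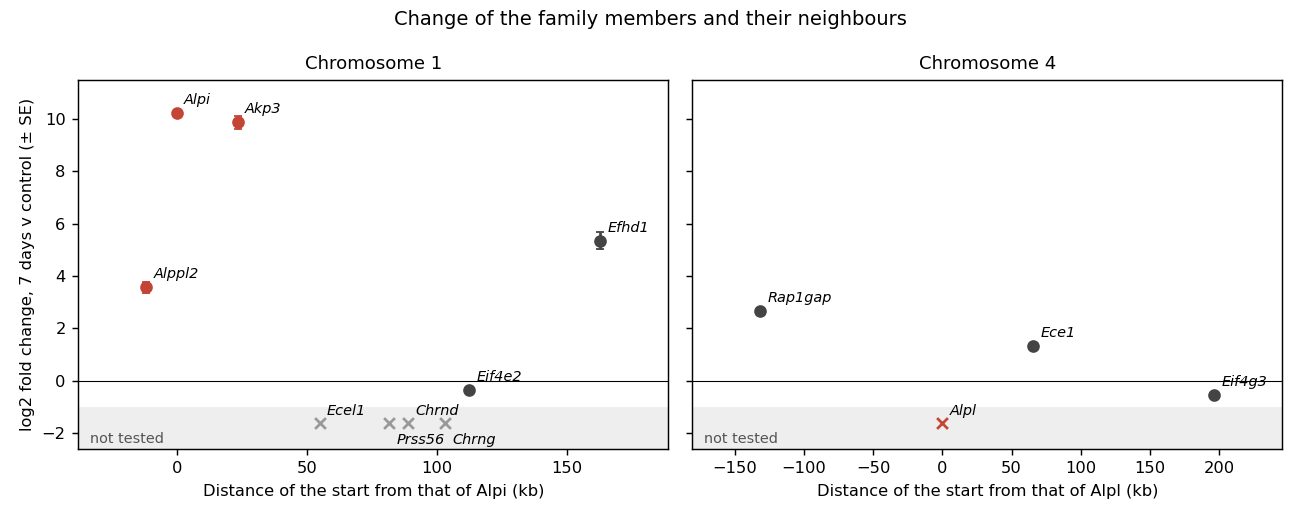
Change at 7 days against control (y axis, log2 fold change ± SE) of the family members (red) and protein-coding neighbours (dark grey) by distance of their start from that of Alpi or Alpl in kb; crosses in the grey band were not tested and have no value. Alpi and Akp3, 23.4 kb apart, stand near 10, Alppl2 at 3.57, Efhd1 at 5.35 and Eif4e2 at −0.37.

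By a rule of likeness, the root mean square difference of log2 CPM from the control mean over the 9 samples, the genes nearest to Alpi were Npc1l1, Ces2e, Ces2c, Fmo5 and Clec2h (differences of 0.478 to 0.535). Npc1l1, the intestinal cholesterol transporter, went from 0.798 to 5.39 and 562 CPM. Among the 5 genes nearest to Akp3 were Treh, Guca2b, Pnliprp2 and Abat (0.472 to 0.609). Guca2b, a gut peptide hormone gene, went from 0.139 to 0.244 and 88.9 CPM. Like Akp3, the genes Treh, Guca2b and Abat were near the floor in controls and at 2 days (at most 0.292 CPM). Their likeness to Akp3 thus rests largely on the 7-day samples. The genes nearest to Alppl2 were Mycbpap, Serpinb1a, Clec2d, Gpr35 and Bcas1 (0.209 to 0.223), and Serpinb1a went from 159 to 377 and 1400 CPM. By Pearson correlation in place of this measure, 1 of the 5 genes was kept for Alpi (Fmo5) and 0 for the others. Over these 9 samples 499 genes had r over 0.99 with Alpi, 359 with Akp3 and 37 with Alppl2, since the samples share 3 groups. The order among such genes is therefore a loose one.

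**Figure D5:**
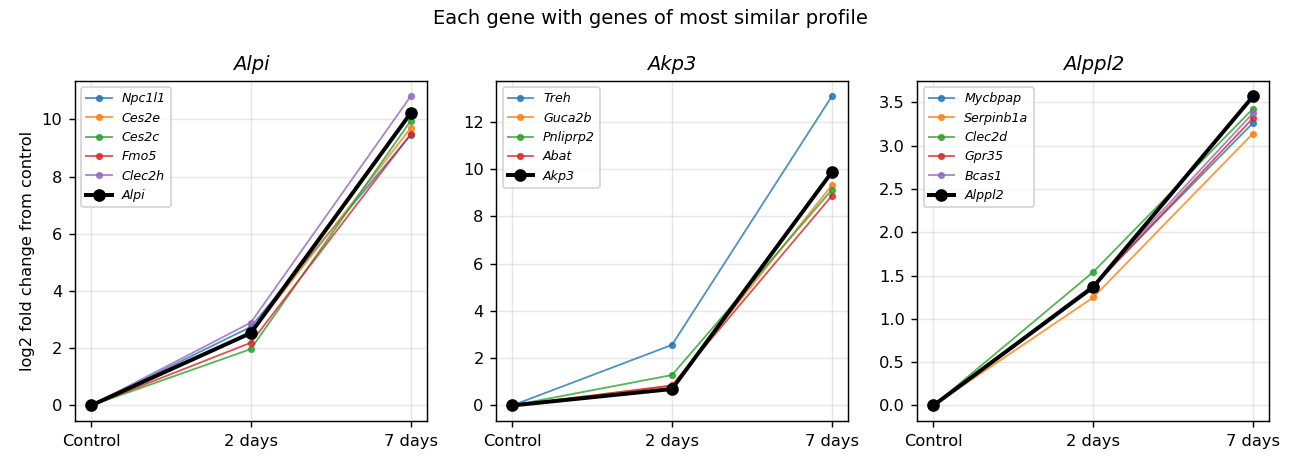
Log2 fold change from control at 2 and 7 days of Alpi, Akp3 and Alppl2 (black) and of the genes named here as most similar in profile (coloured). At 2 days Alpi stands at 2.53 and Akp3 at 0.70, a change that did not pass, before both reach about 10 at 7 days; Treh in the Akp3 panel had 0 control counts, so its fold change is no measured size.

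Cell type markers were read beside the family. All 10 enterocyte markers were tested, and their summed level was 419 to 514 CPM in controls, 441 to 512 CPM at 2 days and 15200 to 16500 CPM at 7 days, led by Vil1 (464, 436 and 1710 CPM) and Apoa1 (2.15, 4.87 and 7900 CPM). In the controls and at 2 days Vil1 made up most of that sum. At 2 days edgeR called 3 of the 10 higher, Apoa1, Fabp2 and Krt20, where Alpi was 5.78-fold higher, and at 7 days all 10. Over all genes tested, 13.1% were called higher at 2 days and 40.5% at 7 days. Colonocyte markers went from 2.31 to 3.62 CPM through 20.6 to 22.8 CPM to 1540 to 2290 CPM (Lypd8 and Slc26a3 leading), and goblet markers from 43.9 to 50.5 CPM through 221 to 242 CPM to 3350 to 4040 CPM (Fcgbp and Tff3). Paneth markers went from 5.02 to 6.18 CPM to at most 0.779 CPM at 7 days, and crypt-base stem cell markers from 186 to 210 CPM to at most 26.3 CPM. In bulk samples more cells of a type and more RNA per cell cannot be told apart.

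Markers of fibroblast, endothelial, immune and neutrophil cells were low. Fibroblast markers summed to 16.9 to 19.9, 4.91 to 6.64 and 1.13 to 1.47 CPM, nearly all Vim, with Lum at 0 counts. Endothelial markers stayed at or under 1.5 CPM (Emcn at 0 counts), immune markers at or under 1.47 CPM, and neutrophil markers at 7.39 to 9.11, 8.76 to 10.3 and 1.6 to 2.22 CPM, mainly Ly6g. For cells known for Alpl or Alppl2, osteoblast and chondrocyte markers summed to 20.3 to 21.7, 12.9 to 14.3 and 13.2 to 16.7 CPM, mainly Runx2 (18.8, 11.6 and 3.54 CPM) and Phospho1 (2.31, 1.73 and 11.3 CPM). Germ cell and pluripotency markers summed to 1.66 to 2.24, 1.44 to 1.93 and 5.61 to 7.27 CPM, mainly Prdm1 (1.73, 0.884 and 4.88 CPM). Trophoblast markers summed to 222 to 230, 221 to 234 and 184 to 207 CPM. They were mainly Cdx2 (171, 178 and 165 CPM), which the intestine also expresses, followed by Eomes (34.5, 36 and 20 CPM). The germ cell list, of which 3 of 6 genes passed the expression filter, moved in the direction of Alppl2 at 7 days, mainly through Prdm1. At 2 days, when Alppl2 was already higher, the sums of that list overlapped those of controls. Its part in the Alppl2 result was not tested.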

How the data were processed

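The 9 libraries were made from poly(A) RNA, per the labels' protocols. The authors deposited their gene counts, unnormalized and whole, in 1 table. STAR 2.7.0e, featureCounts and DESeq2, with builds mm10 and GRCm38, are named per the submitters' processing notes; the sources used here give no annotation release, strand setting, read length or handling of reads that match several copies. Of 21253 gene IDs, 21236 were found in GENCODE M21 (GRCm38), which gave symbols, exons and transcripts. Reads were taken as deposited, so that counts of close copies stay uncertain.

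Genes were filtered by filterByExpr (12535 kept), scaled by TMM and tested with edgeR 4.0.16 (glmQLFit, glmQLFTest; R 4.3.3) with all 9 samples and the group alone, two-sided, at a Benjamini-Hochberg adjusted p under 0.05. The SE is the absolute log2FC over the square root of F. Shares and ratios used exact permutation tests over samples, adjusted over 3 tests each. The code was tested on simulated data. Replicate pairs of a group differed by more than sampling noise (chi-square per degree of freedom of 4.41 to 40.1). Genes named were the members, up to 4 of each list by smallest p, tested neighbours and the 5 genes nearest to each tested member. Exact binomial intervals and floors are 95% and 3 counts, and cover counting error only. The alternatives were other scalings and filters, limma-voom (limma 3.58.1), DESeq2 1.42.0, only the 2 groups compared, a replicate block, each sample left out, and the copies summed; the run without the 100 most abundant genes was added after the data were seen. The members and lists were chosen with earlier results of these data known. Some items are not reported here.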

Additional observations from a re-analysis of the deposited data

How the results depend on the processing

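All log2 fold changes of Alpi, Akp3 and Alppl2 kept their direction and side of the threshold under every alternative that gave a value. At 7 days Alpi ran from 9.79 (the 3 chromosome 1 copies summed) to 10.28, Akp3 from 9.37 to 11.26 and Alppl2 from 3.17 to 3.76. Alppl2 has no value under a mean of at least 5 CPM, and Akp3 none at 2 days with only the 2 groups compared. The replicate numbers are shared by the groups, and 5 of 9 same-number pairs deviated together (r over 0.1, range −0.13 to 0.48). All pairs of numbers 1 and 3 had a positive r (0.0716 to 0.48), and those of number 2 had 0.0181 or less. Different-number pairs ran from −0.437 to 0.169. These values do not settle whether the numbers pair samples across groups, and the main test used the group alone. With the replicate block, more genes were called at 2 days, both higher and lower. Under that block Alpi stood at 2.53 and 10.2, Akp3 at 0.68 and 9.86 and Alppl2 at 1.34 and 3.55 at 2 and 7 days. Pgap3, Slc20a1 and Ece1 gained a call at 2 days. With 1 sample left out, genes called lower at 2 days numbered 809 (without control replicate 2) to 1517, against 1333, the adjusted permutation p of the Akp3 share ran from 0.0321 to 0.782, that of Alpi over Akp3 from 0.0107 to 0.304 and that of Akp3 over Alppl2 from 0.0179 to 0.0536. Per kb, the 7-day shares of Alpi and Akp3 were 93.2% and 6.43%. With library size alone Slc30a6 and Slc20a1 turned to −0.11 at 7 days, and higher calls made up 34.8% of all calls in place of 49.2%. Of the counts of list members called, 90 of 1026 alternatives moved by over 1.5 times. Depth limits the controls most, with 8 Akp3 counts over the group.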
